A study of Drosophila melanogaster with 34 samples.

Results

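Crooked legs (Crol) and Combgap (Cg) were mapped together at 1787 narrow sites of larval brains and imaginal discs that had no Crol peak in the cultured cell line S2. The sites were chosen from 5 peak lists in 5 steps. Of 10139 Crol peaks in wild-type (WT) larvae on chromosomes X and 4 and the arms 2L, 2R, 3L and 3R (assembly dm3), 8250 overlapped a Crol peak of crol-KO larvae by at least 1 bp. Of these, 7238 also overlapped a WT Cg peak, 6915 overlapped Cg peaks of both genotypes, and 6183 of those were narrower than 1200 bp. No S2 peak overlapped 1787 of the 6183 sites, which is 28.9% (27.8 to 30.0), and the other 4396 sites are called S2-shared sites here. The 1787 sites were 17.6% (16.9 to 18.4) of the WT Crol peaks. All intervals beside shares are exact Clopper-Pearson 95% intervals and cover counting error only.

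The series holds 34 ChIP-seq samples of Drosophila melanogaster, of which 10 stand behind the 5 lists. The groups were Crol in crol-KO and in WT tissues, Cg in crol-KO and in WT tissues, and Crol in S2 cells, a line of embryonic origin. Each list was called once on the pooled reads of 2 libraries, so no comparison had a replicate check and no test was run. The other 24 samples were not analysed here. They include further Crol libraries of WT larval tissues, made with antibodies named CrolN and CrolC.

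Tissues came from larvae in the third instar, with 10 animals pooled for each sample. In crol-KO larvae crol sequence had been deleted through CRISPR/Cas9 and replaced by a DsRed marker. The study describes faint remaining Crol protein in this mutant and ascribes it to maternal supply, so crol-KO stands for reduced rather than absent Crol. The libraries labelled wild-type carry no strain name in the labels used here. Crol was precipitated from tissues and S2 cells with the antibody named CrolN, raised against an N-terminal part of the protein. S2 samples were assigned by their titles, although their tissue label names discs and brains.

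Crol is a zinc finger protein of the C2H2 type that binds DNA rich in runs of G. Cg is a zinc finger protein that binds Polycomb response elements, the DNA elements at which Polycomb group complexes assemble to keep developmental genes silent. A peak is a stretch where precipitated reads pile up above the local background, and its summit is the base with the highest pileup. The fold enrichment in the lists is the summit pileup plus 1 over the local background plus 1. Summit pileups were worked back from these values and are given per 1000000 reads of the list (RPM), since the lists rested on 4.89 M reads for Crol in crol-KO, 4.24 for Crol in WT, 3.57 for Cg in crol-KO, 3.42 for Cg in WT and 5.77 for Crol in S2 cells.

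The sites without an S2 peak were of middling strength for Crol and below the middle for Cg. The median Crol fold enrichment was 3.72 in crol-KO and 3.51 in WT, which placed the median site at percentile 53.2 of the crol-KO list and 53.8 of the WT list. For Cg the medians were 3.62 in crol-KO and 3.40 in WT, at percentiles 42.1 and 42.9 of those lists. Fold enrichment ranged from 1.63 to 13.6 for Crol in crol-KO and from 1.91 to 11.3 for Crol in WT. The range for Cg was 1.63 to 15.9 in crol-KO and 1.77 to 9.94 in WT. Strong sites were among them as well, but less often than their share of each list. The 500 strongest Crol peaks held 56 of the sites in crol-KO, 11.2%, and 58 in WT, 11.6%. The sites were 17.6% of all WT Crol peaks, and their crol-KO Crol partners were 1758 of 9883 peaks. The 500 strongest Cg peaks held 32 in crol-KO, 6.4%, and 38 in WT, 7.6%. The Cg partners of the sites were 1763 of 9299 peaks in crol-KO and 1776 of 8938 in WT. The width limit left out 136 sites that met every other condition. Without the limit the median WT Crol fold enrichment was 3.60, so the rule itself bears on these shares.

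The gap to the S2-shared sites was wider for Cg than for Crol. The median Crol fold enrichment in crol-KO was 3.72 (3.66 to 3.79) at sites without an S2 peak and 4.36 (4.31 to 4.41) at S2-shared sites, and in WT it was 3.51 (3.46 to 3.58) and 3.76 (3.70 to 3.82). For Cg the medians were 3.62 (3.57 to 3.69) and 4.80 (4.74 to 4.87) in crol-KO, and 3.40 (3.35 to 3.46) and 4.22 (4.17 to 4.27) in WT. Intervals beside medians are order-statistic 95% intervals over regions, which are not replicates. The peak calls that chose the sites rest on these values, so they are given as a description. In none of the 4 lists did the intervals of both sets overlap. Widths were alike in the WT Crol list, where the rule limits them, with a median of 556 bp for sites without an S2 peak and 548 bp for S2-shared sites. In the crol-KO Crol list the medians were 603 bp and 616 bp. In the Cg lists the sites without an S2 peak were narrower. There the medians were 544 bp (534 to 556) and 605 bp (595 to 614) in crol-KO, and 519 bp (510 to 529) and 549 bp (544 to 556) in WT.

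**Figure D1:**
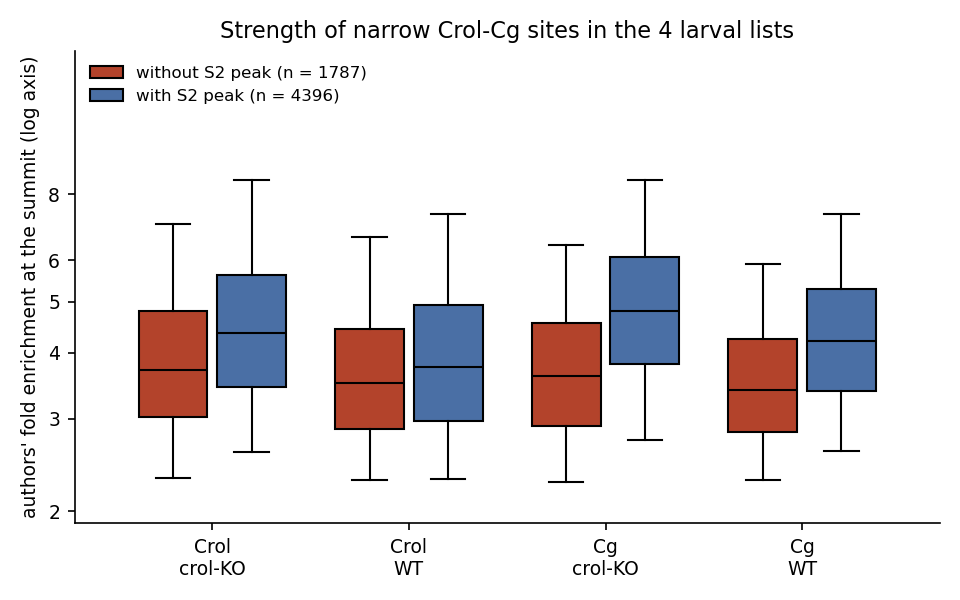
Fold enrichment at the summit (log axis) in the Crol and Cg lists of crol-KO and WT tissues, for 1787 sites without an S2 peak (red, left of each pair) and 4396 S2-shared sites (blue, right). Boxes span the quartiles with the median as a line, and whiskers run from the 5th to the 95th percentile. The medians lie apart most in the crol-KO Cg list, at 3.62 and 4.80.

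Sorting the 6183 narrow sites by strength gave a gradient for most measures. Of all WT Crol peaks, 41.6% had no S2 peak. Among the narrow sites, the share without one was 54.6% (51.7 to 57.4) in the lowest quintile of crol-KO Cg fold enrichment and 11.0% (9.30 to 12.9) in the highest. It was 49.3% and 13.0% at both ends for WT Cg, and 42.8% and 19.1% for crol-KO Crol. Of the 4 fold enrichments, that of WT Crol separated the sites least, with 31.7% (29.1 to 34.4) in its lowest quintile and 21.2% (18.9 to 23.6) in its highest. Fold enrichment has the local background in its denominator. By WT Crol pileup, which does not, the shares were 48.1% (45.3 to 50.9) in the lowest quintile and 15.6% (13.6 to 17.7) in the highest. Across quintiles of peak width in the WT Crol list the share stayed between 27% and 31.2%.

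The local background, which is the number of reads the peak caller expected at a summit, was lower at sites without an S2 peak. In units of the genome-wide background of its list, its median in the Crol lists was 1.56 in crol-KO and 1.53 in WT. At S2-shared sites it was 1.76 in crol-KO and 1.86 in WT. The share of sites without an S2 peak was 56.3% (53.5 to 59.1) in the lowest quintile of WT background, then 32.1%, 22.2% and 19.6%, and 14.3% (12.4 to 16.4) in the highest. With the background of the crol-KO list the ends were 44.3% and 15.9%. The background enters the peak calls on which the rule rests, and the library that served as control is not given in the sources used here. Its part in the absence of S2 peaks was not tested.

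The background relation was present in each tercile of WT Crol fold enrichment. Within a tercile a lower background goes with a lower pileup, and the sites were not divided by pileup and background together. In the lowest tercile of WT Crol fold enrichment, 62.3% of sites in the lowest background quintile had no S2 peak, against 14.8% in the highest background quintile. In the middle tercile the shares were 62.0% and 14.4%, and in the highest tercile 44.6% and 14.0%. It was also present on each large arm when its sites were divided at the median background. The shares below and above that median were 42.5% and 13.7% on X, 40.1% and 18.3% on 2L, and 35.9% and 15.7% on 2R. On 3L they were 41.7% and 21.4%, and on 3R 44.0% and 15.2%. Chromosome 4 ran the other way, with 6 of 35 sites below its median background and 12 of 35 above it, and these intervals overlapped (6.56 to 33.6 and 19.1 to 52.2%). The 3224 WT Crol peaks that were not found in all 4 larval lists had a shallower gradient on a higher level, with 81.1% lacking an S2 peak in the lowest background quintile and 58.1% in the highest.

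**Figure D2:**
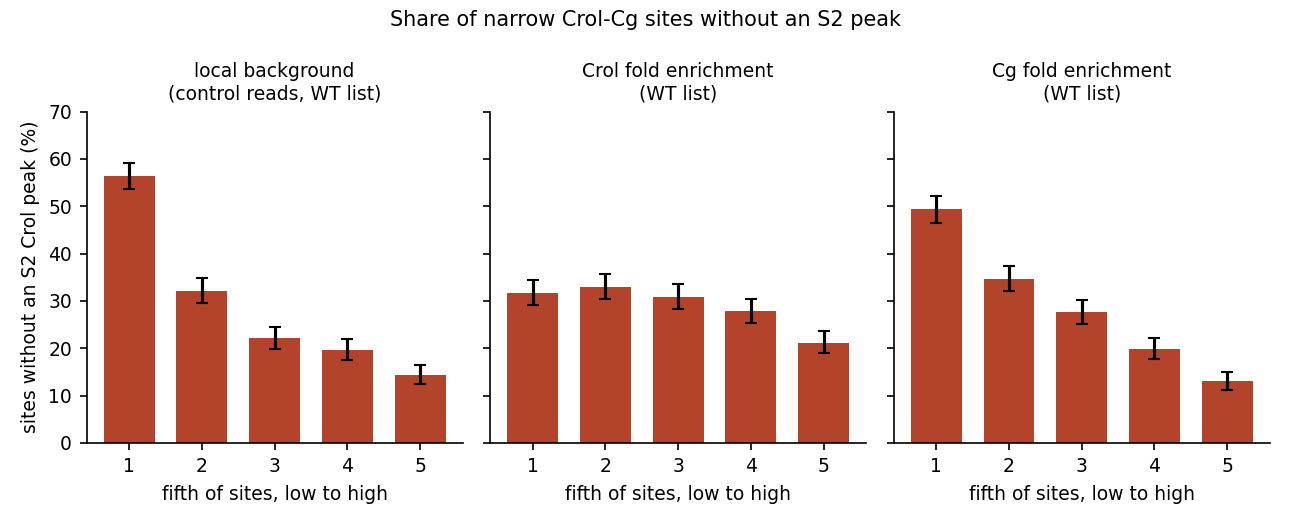
Percentage of the 6183 narrow sites that had no S2 Crol peak, in 5 equal groups of sites ordered from low to high by local background in the WT Crol list (left), by WT Crol fold enrichment (middle) and by WT Cg fold enrichment (right). Bars are shares and error bars are exact 95% intervals. The share is 56.3% at the lowest and 14.3% at the highest background, and 49.3% and 13.0% for Cg, while Crol fold enrichment runs between 33.0% and 21.2%. By WT Crol pileup, not plotted here, the share runs between 48.1% and 15.6%.

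Most sites lay more than 1000 bp from any S2 peak, but 870 of them, 48.7% (46.3 to 51.0), had one within 5000 bp. These distances were not set against those of other positions. The distance to the nearest S2 peak had a median of 5277 bp and ran between 16 and 181358 bp. An S2 peak lay within 1000 bp of 300 sites, 16.8% (15.1 to 18.6), so for these the absence is one of overlap and not of the neighbourhood. The 3 nearest were on 3L from 19286257 to 19286806, at 16 bp, on 3L from 8569634 to 8569949, at 42 bp, and on 3R from 7177344 to 7177959, at 54 bp. The 3 farthest all lay near one end of 3L. They spanned 22463401 to 22463815, 22458922 to 22459816 and 22565411 to 22565928, and their Crol fold enrichment was 2.92, 2.92 and 6.28 in crol-KO and 2.68, 2.75 and 4.98 in WT.

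The members were spread over all arms. They made up 15.8% (14.2 to 17.6) of WT Crol peaks on X, 17.8% (16.1 to 19.7) on 2L, 15.7% (14.1 to 17.4) on 2R, 19.3% (17.6 to 21.0) on 3L, 19.0% (17.4 to 20.6) on 3R and 20.7% (12.7 to 30.7) on chromosome 4. The intervals of 2R lay below those of 3L and 3R and that of X below that of 3L, but without the width limit these pairs overlapped. As shares of the narrow sites found in all 4 larval lists, 2R had 25.8% (23.4 to 28.4) and 3L 31.5% (29.0 to 34.1), and X and 3R overlapped with both. Many of the sites were neighbours of each other. The nearest WT Crol peak was another of these sites in 29.5% (27.4 to 31.7) of cases, beside their share of 17.6% among all WT Crol peaks. It was an S2-shared site in 29.7% (27.5 to 31.8) of cases, beside a share of 43.4%. For S2-shared sites the nearest peak was another S2-shared site in 57.4% of cases. Another WT Crol peak of any kind lay within 1000 bp of 35.9% of the sites and of 32.6% of all WT Crol peaks.

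In the order of WT Crol peaks, 974 sites stood alone and the rest formed runs, among them 236 pairs, 76 runs of 3 and 16 runs of 4. The longest run held 10 consecutive sites on 2L, from 17542661 to 17588802, a span of 46142 bp with 0 S2 peaks. The nearest S2 peaks lay 41228 bp to the left of its first site and 936 bp to the right of its last. Its sites were of ordinary strength. Their Crol fold enrichment ran from 2.51 to 6.19 in crol-KO and from 2.51 to 6.54 in WT, and that of Cg from 2.78 to 5.94 in crol-KO and from 2.84 to 5.41 in WT. The strongest Crol site of the run in both genotypes was the fourth, from 17560177 to 17561090, with 23.7 RPM in crol-KO and 21.2 in WT. The second, from 17558267 to 17558943, had the lowest Crol ratio of the run, with 14.5 RPM in crol-KO and 21.0 in WT.

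**Figure D3:**
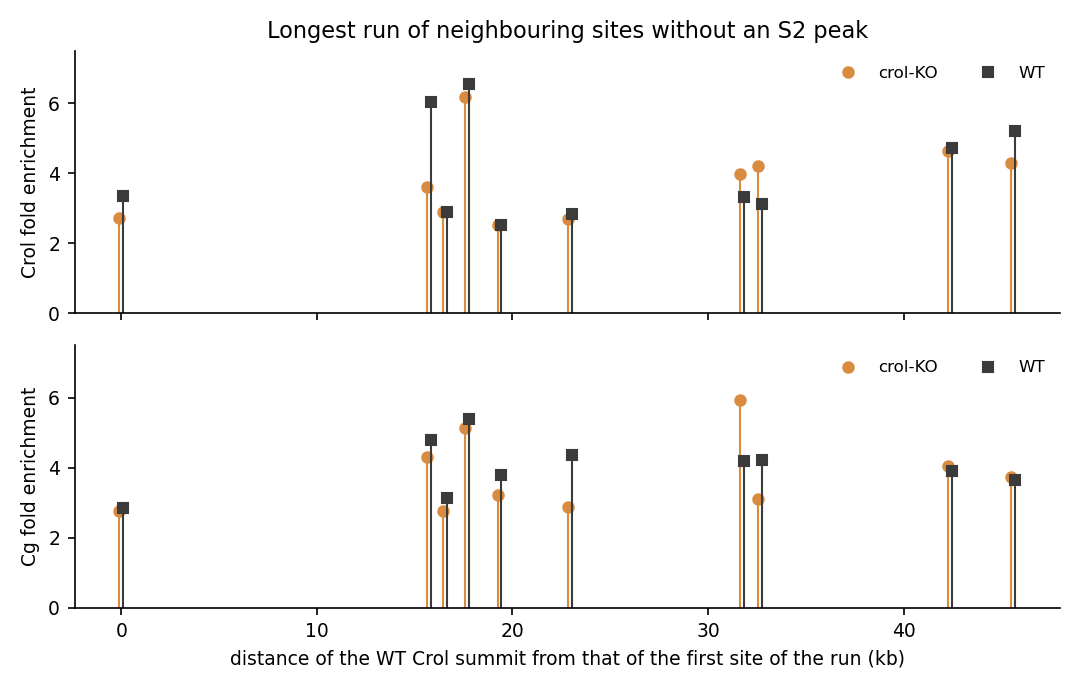
Fold enrichment of Crol (top) and Cg (bottom) at the 10 sites of the longest run on 2L, against the distance of each WT Crol summit from that of the first site in kb. Circles are crol-KO and squares are WT, drawn slightly left and right of the position so that both can be seen. Values lie between 2.51 and 6.54, and neither genotype is higher at every site.

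Both proteins remained at these sites in crol-KO tissues, as the rule required. Scaled to the reads of each list, the summit pileup of the typical site was nearly equal in the genotypes. The median Crol pileup was 15.1 RPM in crol-KO and 13.9 in WT, and the median Cg pileup was 14.5 in crol-KO and 13.7 in WT. The log2 ratio of crol-KO to WT pileup had a median of 0.14 (0.097 to 0.16) for Crol and 0.078 (0.057 to 0.096) for Cg. All WT peaks with a crol-KO partner were shifted as well, with medians of 0.12 over 8246 Crol peaks and 0.099 over 7995 Cg peaks. Relative to these shifts the sites stood at 0.019 (-0.019 to 0.044) for Crol and at -0.021 (-0.042 to -0.0029) for Cg. RPM scales each list to all of its reads, so these ratios need not show a loss shared by all sites in full. The values set relative to the shifts of all peaks would not show such a loss. The study reported less Crol protein in crol-KO and significantly decreased Crol binding at a subset of loci.

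Single sites varied more than the median, and more for Crol than for Cg. A Crol pileup more than 1.5-fold higher in crol-KO was found at 245 sites, 13.7% (12.1 to 15.4), beside 8.73% of all WT Crol peaks with a partner. A pileup more than 1.5-fold lower was found at 179 sites, 10.0% (8.66 to 11.5), beside 9.92%. With the median of all peaks set to 0, the split turned round, to 148 sites higher, 8.28% (beside 4.91%), and 238 lower, 13.3% (beside 12.9%). Which direction held more sites thus depended on the scaling. For Cg, 101 sites were higher, 5.65% (beside 5.54%), and 39 lower, 2.18% (beside 1.83%), or 69 higher, 3.86% (beside 3.55%), and 83 lower, 4.64% (3.72 to 5.73, beside 3.48%), after the same centring. The centred lower share for Cg thus lay above that of all peaks, while the intervals of the other 3 Cg shares held the all-peak value.

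**Figure D4:**
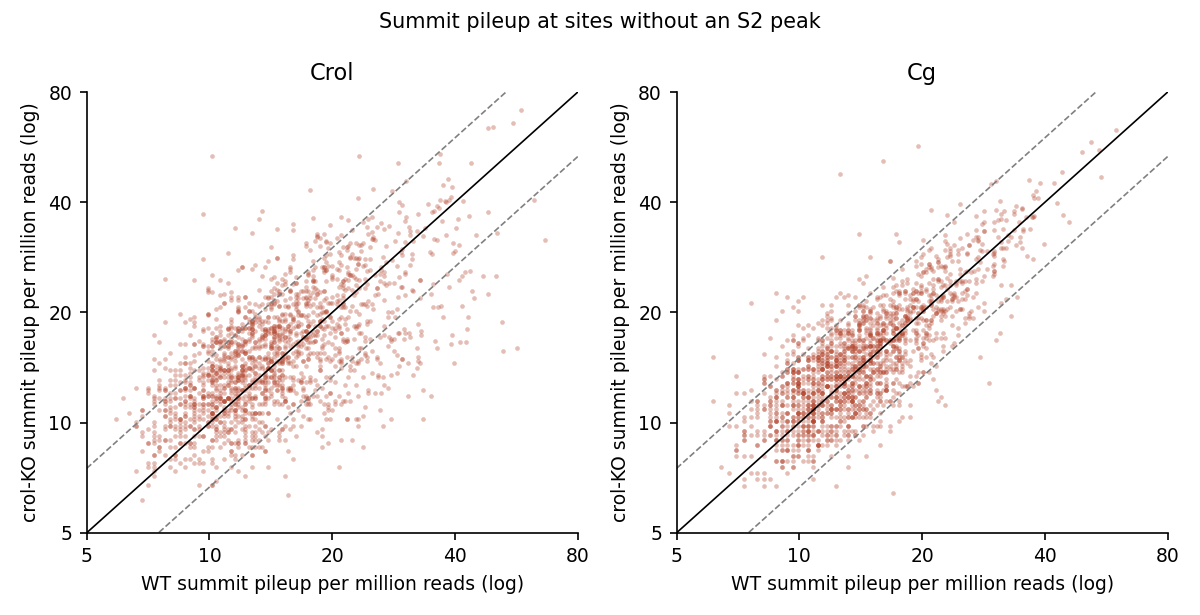
Summit pileup (RPM, reads per 1000000) in crol-KO (vertical) against WT (horizontal) for Crol (left) and Cg (right) at the 1787 sites without an S2 peak, on log axes. The solid line marks equal pileups and the dashed lines a 1.5-fold difference. For Crol 245 sites lie above the upper and 179 below the lower dashed line, and for Cg 101 and 39.

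The spread of the Crol ratio was wider at sites without an S2 peak than at S2-shared sites. Its SD over sites was 0.50 and 0.41 on the log2 scale, beside 0.48 over all 8246 WT Crol peaks with a partner, so that the members were close to all peaks and the S2-shared sites had the narrower spread. A ratio past 1.5-fold in either direction was found at 23.7% (21.8 to 25.8) of the members and 14.0% (13.0 to 15.1) of S2-shared sites, beside 18.7% of all peaks. The difference from S2-shared sites was also present at matched strength. When both sets were divided at the same mean pileups, the SD was larger at sites without an S2 peak in all 5 quintiles, with 0.40 and 0.33 in the weakest and 0.57 and 0.44 in the strongest. In the strongest quintile, 17.0% of 165 sites without an S2 peak were lower in crol-KO, against 8.40% of 1071 S2-shared sites, and 7.88% against 6.35% were higher. In the second weakest quintile 9.46% against 3.02% were lower and 17.8% against 10.1% were higher. Over all WT Crol peaks with a partner, at any strength, 9.92% were lower and 8.73% higher. These shares were not centred, and the direction depended on the scaling. The rank correlation of fold enrichment between genotypes, a description over sites that share their 2 lists, was 0.47 for Crol over 1787 sites and 0.66 over 4396 S2-shared sites. For Cg it was 0.65 and 0.73, with SDs of the log2 ratio of 0.35 and 0.31.

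The largest ratios compared summits at different places. The 3 highest Crol ratios, log2 2.40, 1.94 and 1.67, belonged to sites whose crol-KO summit lay 1049, 684 and 797 bp from the WT summit. These sites were on 2L from 4281660 to 4282159, on 2L from 9566682 to 9567137 and on 3R from 6015932 to 6016509. The 3 highest Cg ratios, 1.93, 1.69 and 1.54, likewise had summits 1250, 892 and 1297 bp apart, at the first of these sites, on 2R from 9828446 to 9829085 and on X from 8411914 to 8412840. The lowest Cg ratio, -1.40 on X from 19613525 to 19613969, had Cg summits 1407 bp apart. Its Crol pileups were 7.56 RPM in crol-KO and 7.30 in WT.

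At most sites the summits coincided, and the difference in Crol spread from S2-shared sites remained there. The crol-KO and WT Crol summits lay within 100 bp of each other at 1391 sites, 77.8%. Among these, a restriction chosen after the data were seen, 22.9% (20.7 to 25.2) lay past 1.5-fold in either direction. Among the S2-shared sites restricted in the same way the share was 11.5% (10.5 to 12.6), and 15.5% among all peaks. For Cg the restricted shares were 6.77% (5.52 to 8.21) and 5.31% (4.61 to 6.07), beside 5.63% of all peaks, and without the restriction 7.83% and 6.28%, beside 7.37%.

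Low Crol ratios were found at sites with matching summits too. The lowest of all was on 3L from 16166884 to 16167870, with 15.9 RPM in crol-KO and 56.8 in WT, a log2 ratio of -1.83, and summits 17 bp apart. Cg at this site had 11.5 RPM in crol-KO and 21.9 in WT, a log2 ratio of -0.93. Both proteins were thus lower there in crol-KO. At the site on 3L from 20910202 to 20910977, with summits 4 bp apart, Crol had 10.2 RPM in crol-KO and 33.5 in WT, while Cg had 9.79 and 12.0. On 2L from 18463761 to 18464654, where the Crol summits lay 214 bp apart, Crol had 15.7 RPM in crol-KO and 52.3 in WT, and Cg 12.9 and 29.2. On 2R from 15465977 to 15466666 Crol had 11.9 RPM in crol-KO and 34.9 in WT, and Cg 11.2 and 22.8. All 4 sites were lower in crol-KO for both proteins, and in each the Crol difference was the larger. The sites on 3L and 2L were picked for low Crol ratios and that on 2R for a low Cg ratio. The log2 ratio also spread more for Crol than for Cg, with SDs of 0.50 and 0.35 over the 1787 sites. Such picking favours low values and, for sites picked by Crol, a larger Crol difference. Over all 1787 sites, both proteins were more than 1.5-fold lower in crol-KO at 22, 1.23%, and Crol only at 157, 8.79%. Both were more than 1.5-fold higher at 39, 2.18%, and Crol only at 206, 11.5%. In that order, the shares at S2-shared sites were 0.682%, 5.30%, 1.39% and 6.67%. These shares were not centred.

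The highest Crol ratio with summits within 100 bp was on 3L from 4431138 to 4431652. Crol had 24.5 RPM there in crol-KO and 9.19 in WT, a log2 ratio of 1.42, and Cg had 24.1 and 14.3, a log2 ratio of 0.75. The next, on 3L from 10079359 to 10079772, had 29.0 RPM for Crol in crol-KO and 11.1 in WT, and 18.5 RPM for Cg in crol-KO and 10.5 in WT. Both sites were weak in WT, with Crol fold enrichments of 2.45 and 2.78. They were picked by this restriction after the data were seen.

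The sites with the highest WT Crol fold enrichment all had fewer Crol reads in crol-KO. The strongest, on 2R from 2462009 to 2463115, had a Crol fold enrichment of 6.30 in crol-KO and 11.3 in WT, with 31.5 and 66.4 RPM, and a Cg fold enrichment of 6.95 in crol-KO and 7.90 in WT. A neighbour on 2R from 2434577 to 2435514 had 3.25 in crol-KO and 10.0 in WT for Crol, and 2.10 in crol-KO and 4.07 in WT for Cg. Both proteins had lower values in crol-KO at these sites. The nearest S2 peaks lay 37163 and 64764 bp from these sites. The site on 2L from 17735265 to 17736150 had a Crol fold enrichment of 6.05 in crol-KO and 10.6 in WT with nearly equal Cg values, 4.84 and 4.75, and an S2 peak 253 bp away. On X from 8107755 to 8108633 Crol had 5.53 in crol-KO and 9.99 in WT, and Cg 5.66 and 7.53. The other two, on 3L from 26503 to 27243 and on 2R from 8667630 to 8668374, had Crol values of 3.34 and 6.24 in crol-KO and of 9.64 and 9.61 in WT. Picking sites by their WT value favours this direction. Among the 100 strongest by WT Crol fold enrichment the median log2 Crol ratio was -0.48, and among the 100 strongest by crol-KO Crol fold enrichment it was 0.49.

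The Crol and Cg summits lay close together, a position that the rule did not use, although overlap limits how far apart they can be. Their median distance was 43 bp (41 to 46) in crol-KO and 49 bp (46 to 52) in WT, beside 31 bp (29 to 32) in crol-KO and 36 bp (34 to 38) in WT at S2-shared sites. Within 100 bp lay 81.6% (79.8 to 83.4) of the sites in crol-KO and 77.2% (75.2 to 79.1) in WT. At S2-shared sites these shares were 87.3% and 82.4%. Both distances between proteins and both distances between genotypes were within 100 bp at 992 sites, 55.5% (53.2 to 57.8), against 68.8% (67.4 to 70.2) of S2-shared sites.

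In both sets the distances were shorter in the strongest than in the weakest quintile of Crol pileup. In crol-KO the median was 52 bp and 45 bp in the weakest quintile and 38 bp and 26 bp in the strongest, for sites without and with an S2 peak. In WT these pairs were 57 bp and 52.5 bp, and 39 bp and 33 bp. The sites without an S2 peak had the longer median in each quintile of both genotypes, and the intervals of the sets met or overlapped in the 3 weakest quintiles of crol-KO and in the weakest and the strongest of WT. The largest distances in WT, 1475 bp on X from 19613525 to 19613969 and 1192 bp on 2L from 5000009 to 5001065, stood out from the 95.6% of sites within 300 bp. In crol-KO the Crol and Cg summits of these sites lay 97 bp and 76 bp apart.

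**Figure D5:**
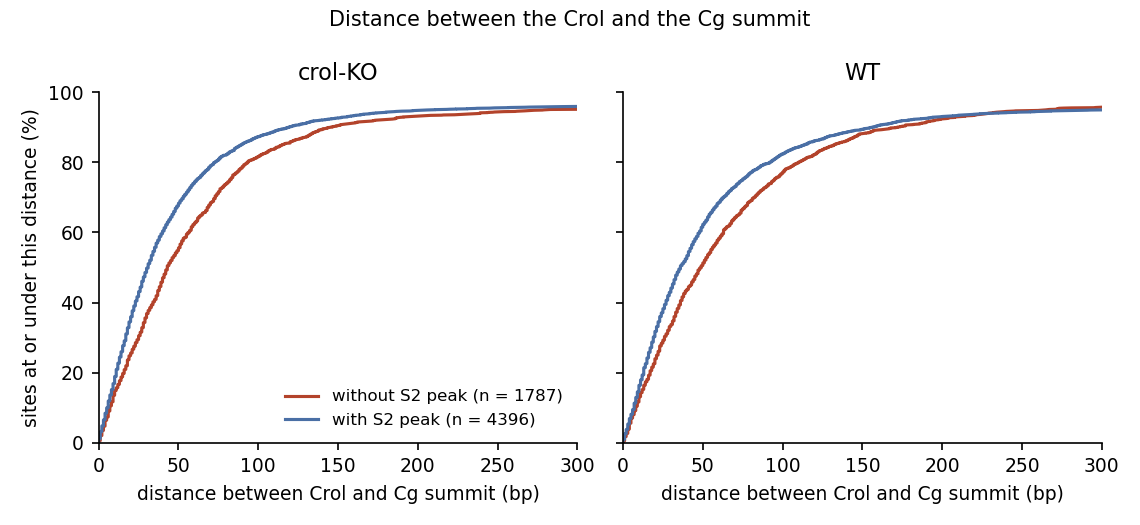
Cumulative percentage of sites by the distance in bp between their Crol and Cg summits, in crol-KO (left) and WT (right), for 1787 sites without an S2 peak (red) and 4396 S2-shared sites (blue), up to 300 bp. The red curves lie to the right of the blue at short distances, with medians of 43 and 31 bp in crol-KO and 49 and 36 bp in WT.

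The sites named on either side of the width limit had overlapping ranges of Crol fold enrichment. The widest members were 1197, 1194 and 1189 bp wide in WT, with Crol fold enrichments of 3.10, 6.14 and 3.80 in crol-KO and 4.38, 7.32 and 4.13 in WT. The narrowest sites beyond the limit that met every other condition were 1204, 1204 and 1206 bp wide, with 5.40, 5.98 and 3.90 in crol-KO and 7.43, 4.27 and 3.85 in WT. Beyond the limit, 136 of 732 sites found in all 4 larval lists had no S2 peak, 18.6% (15.8 to 21.6), a lower share than among narrow sites. Adding these 136 raised the count with Crol more than 1.5-fold lower in crol-KO from 179 to 230. The count with Crol higher went from 245 to 248. For Cg, lower sites went from 39 to 50 and higher sites from 101 to 107. The wide sites were thus more often lower than the members. Over all WT Crol peaks with a partner, 9.92% were lower and 8.73% higher. These counts were not centred, and the cause was not tested. Not all members were separate in the other lists: their crol-KO Crol partners were 1758 distinct peaks, and 113 members shared such a partner with another WT Crol peak.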

How the data were processed

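The members and lists were chosen with earlier results of these data known. The authors trimmed reads (Trim Galore 0.6.5), aligned them to dm3 (Bowtie2 2.3.5), removed PCR duplicates (SAMtools 1.13), pooled replicates and called narrow peaks with MACS2 2.2.5 at a q-value of 0.05, extending reads to 300 bp. Each deposited list gives positions, the summit, a score of 10 times the −log10 q, the authors' fold enrichment as a ratio of pileup to local background with a pseudocount of 1, and, as the authors' caller wrote them, −log10 p and q-values. Each list skips between 332 and 357 peak numbers, and those peaks were not analysed here.

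Pileup and background were solved from the deposited fold enrichment and −log10 p, to a relative tolerance of 2e-05, and came out whole for at least 97.6% of peaks per list. Reads were taken as the lowest background times 120 Mb over 300 bp. Of several overlapping partners the one with the largest overlap was used. The calculations were tested on simulated data (python 3.11.15, numpy 2.4.6, pandas 2.3.3, scipy 1.17.1). bedtools 2.31.1 served only to check overlaps. Depth and pooled replicates limit each value, and intervals cover counting error or the spread between regions.

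Named regions were those with the 6 highest WT Crol fold enrichments, the 3 highest and lowest ratios of each protein with a pileup of at least 50 reads in one genotype, the longest run, the 3 sites on either side of the width limit, the 3 nearest to and farthest from an S2 peak, and the 2 with the largest Crol to Cg distance in WT. Regions named outside this rule are marked as chosen after the data were seen. Positions are counted from 1. A genome or gene annotation of dm3 was not used here, so no sequences, motifs or gene names are given. Alternatives covered overlap, distance to S2 peaks, width, threshold, partner, scaling and the quantity compared.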

Additional observations from a re-analysis of the deposited data

Results flagged for a closer look

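On the heterochromatic sequences of dm3, outside the arms used above, 39 WT Crol peaks were listed and 34 of them were narrow and found in all 4 larval lists. Of these, 9 had no S2 peak, 26.5% (12.9 to 44.4), beside 28.9% of such sites on the arms, and their median WT Crol fold enrichment was 3.35. They were singled out because they lie in data that the comparisons did not use.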

How the results depend on the processing

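Of 110 values recomputed for 21 results under 8 alternatives, 69 moved by less than their interval or 1.5-fold, 40 moved further and 1 reversed. With at least 50% overlap of both peaks, Cg medians were 3.71 in crol-KO and 3.49 in WT, the neighbour share 23.8%, and the shares by arm 11.8% (X), 14.5% (2L), 12.3% (2R), 16.2% (3L) and 15.7% (3R). With no S2 peak within 1000 bp, the arms gave 13.0%, 15.1%, 12.8%, 15.8% and 16.1% in that order, and the distance to an S2 peak 7224 bp. Without a width limit, the WT Crol median was 3.60, the neighbour share 32.6% and the 2R share 17.5%. With a −log10 q of at least 10 in the larval lists, 697 members remained, with Crol medians of 4.76 in crol-KO and 4.33 in WT and Cg medians of 4.55 and 4.34. The Crol ratio was then 0.16, with 88 sites higher and 59 lower, Cg had 22 higher and 5 lower, summit distances were 40 bp in crol-KO and 43 bp in WT, the neighbour share 20.1%, and the arms 7.75%, 11.0%, 9.80%, 12.0% and 11.9%. Fewer peaks enter under that threshold by construction. For these counts and for the neighbour shares, the matching share over all peaks is not given under the changed settings. With the median of all peaks set to 0, the Crol ratio was 0.019 with 148 sites higher, and the Cg ratio reversed to -0.021 with 83 sites lower. Authors' fold enrichment in place of the pileup gave 60 sites with lower Cg. Partners with summits within 100 bp, an alternative chosen after the data were seen, gave a Crol ratio of 0.17. Beyond what these settings imply by construction, the cause was not tested. No paired analysis was possible because replicates were pooled before peak calling, and for the same reason no replicate could be left out. The share of sites with a motif was not run, as no dm3 genome was used here.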

Other observations

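Around the member with the second lowest Crol ratio, 6 other members lay within 10 kb of it on 2L, and the 7 together ran from 18455462 to 18470247, a group chosen after its values were seen. Crol had 15.7 RPM in crol-KO and 52.3 in WT at the site from 18463761, 25.1 and 50.4 at the site from 18465344, and 32.9 and 50.6 at the site from 18468190. These 3 sites had the most Crol reads of the group in WT, a choice that favours lower values in crol-KO, and all had fewer there. Between them, the site from 18467412 had 16.6 in crol-KO and 19.6 in WT. The site from 18469620, next to the last of the 3, had 33.3 in crol-KO and 31.1 in WT. Cg had 12.9 RPM in crol-KO and 29.2 in WT, 16.8 and 30.4, and 28.0 and 37.4 at the 3 sites, and it had 16.8 and 15.8, and 42.8 and 38.0, at the other two. The remaining sites of the group, from 18455462 and from 18456902, had 27.4 and 13.3 RPM for Crol in crol-KO and 27.1 and 17.0 in WT. Neighbouring sites less than 10 kb apart thus differed in how much their pileup changed.

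Windows of 200 kb were named after the data were seen. The most members were in 3L from 800001 to 1000000, with 14 of 29 WT Crol peaks, followed by 2R from 10800001 to 11000000, with 13 of 26. The window of chromosome 4 from 400001 to 600000, named for its chromosome and not by rank, held 11 members of 28 peaks. The chromosome has 18 members in all.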
